A study of Mus musculus with 3 samples.

Results

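Interferon-high tumour cells were the small set of Lewis lung carcinoma cells in which transcripts of 5 interferon-stimulated genes stood highest. They were chosen by a score: the UMIs (unique molecular identifiers, each counting 1 captured transcript) of Isg15, Ifit1, Ifit3, Rsad2 and Irf7 in a cell, per 10000 UMIs of that cell. The score was read only in cells that passed a tumour gate, which asked for at least 300 genes, at most 15% mitochondrial UMIs, at least 5000 UMIs, no UMI of the leukocyte gene Ptprc, and at least 5 UMIs of Krt8, Krt18 and Hmga2 together. The top 3% of the score over all gated cells was taken, which gave 448 cells of 14941 gated cells and of 28943 barcodes in all. The remaining 14493 gated cells served as the comparison. Because the cells were selected on the 5 score genes, the levels of those genes are given as a description, without a test.

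LLC1, the Lewis lung carcinoma line of C57BL mice, had been injected into the marrow cavity of the right tibia, 1000000 cells in 10 µL for each mouse. The hosts, 8 weeks old, were WT mice, DMP1-Cre Mfn2-/- mice and DMP1-Cre Rhot1-/- mice. The Dmp1 promoter is active in osteocytes and late osteoblasts, so Cre belonged to the host bone and the injected tumour cells carried the line's own genotype. Mfn2 encodes a mitochondrial fusion protein and Rhot1 a mitochondrial transport protein, and the labels name no Cre for the WT group. Tumours were taken at day 14, dissociated with collagenase, DNase and hyaluronidase, and sorted for live cells. The tumours of 3 mice were mixed in equal parts for each group, and each mix gave 1 droplet library. Cells could not be assigned to a mouse, so comparisons between genotypes rest on 1 library each and were not tested. Comparisons within libraries used the 3 libraries as replicates, whose spread holds genotype as well as handling. The libraries held between 112088653 and 118223251 UMIs. Of these, the interferon-high cells contributed 2295261 UMIs from 130 cells of the WT library, 1972514 from 116 cells of the DMP1-Cre Mfn2 library and 3345284 from 202 cells of the DMP1-Cre Rhot1 library. Pairs of libraries shared between 20 and 35 barcode sequences, and at most 2 interferon-high cells of any library had a barcode also seen in another.

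Type I interferons bind the Ifnar1 and Ifnar2 receptor and activate a complex that holds Stat2 and Irf9 and binds interferon-stimulated response elements in gene promoters. Interferon gamma binds Ifngr1 and Ifngr2 and acts at gamma-activated sites, with guanylate-binding proteins and immunity-related GTPases among its strongest targets. Isg15 is a ubiquitin-like protein that is joined to other proteins. Ifit1 and Ifit3 belong to a family that binds foreign RNA, Rsad2 makes an antiviral nucleotide, and Irf7 drives further interferon transcription. In tumours such a programme can occur in cancer cells as well as in infiltrating leukocytes, and it includes chemokines that attract T cells and the machinery of antigen presentation.

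The promoters of several of these genes hold the letters of the response element. The stretches below were taken from RefSeq promoter windows on GRCm38.p6, the assembly also called mm10. They lie upstream of the annotated start and outside annotated exons, and are written 5′ to 3′ in the direction of the gene. Capitals mark matches to GAAANNGAAA, the core of the interferon-stimulated response element, on either strand, where the opposite strand reads TTTCNNTTTC. The first 4 are score genes. Cxcl10, Gbp7 and Oas1a stand outside the score and are shown because the results below turn on a chemokine, an interferon-gamma-linked GTPase and an antiviral effector. They lie at chr4:156200819-156201038 on the minus strand for Isg15, chr19:34640744-34640870 on the plus strand for Ifit1, chr19:34583309-34583528 on the plus strand for Ifit3 and chr12:26456453-26456672 on the minus strand for Rsad2. Those outside the score lie at chr5:92348890-92349109 on the minus strand for Cxcl10, chr3:142530116-142530335 on the plus strand for Gbp7 and chr5:120907526-120907745 on the minus strand for Oas1a.
Isg15: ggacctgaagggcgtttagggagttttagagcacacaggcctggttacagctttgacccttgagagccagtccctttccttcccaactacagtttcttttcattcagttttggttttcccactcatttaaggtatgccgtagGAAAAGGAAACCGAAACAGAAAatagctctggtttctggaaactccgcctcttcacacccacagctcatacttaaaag
Ifit1: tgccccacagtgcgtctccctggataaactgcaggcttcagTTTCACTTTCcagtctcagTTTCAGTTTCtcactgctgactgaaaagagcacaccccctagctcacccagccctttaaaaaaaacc
Ifit3: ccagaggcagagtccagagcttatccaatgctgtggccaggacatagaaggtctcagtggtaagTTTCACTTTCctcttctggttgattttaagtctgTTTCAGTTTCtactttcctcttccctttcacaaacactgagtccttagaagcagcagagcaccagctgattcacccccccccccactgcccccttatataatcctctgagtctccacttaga
Rsad2: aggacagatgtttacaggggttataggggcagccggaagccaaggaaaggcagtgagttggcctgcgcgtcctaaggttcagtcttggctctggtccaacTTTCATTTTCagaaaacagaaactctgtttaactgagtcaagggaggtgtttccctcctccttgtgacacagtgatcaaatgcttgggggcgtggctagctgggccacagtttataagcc
Cxcl10: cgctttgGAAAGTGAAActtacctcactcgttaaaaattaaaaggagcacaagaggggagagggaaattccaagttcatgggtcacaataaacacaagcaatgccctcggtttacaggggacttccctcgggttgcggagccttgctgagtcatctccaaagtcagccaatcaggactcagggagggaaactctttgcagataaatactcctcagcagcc
Gbp7: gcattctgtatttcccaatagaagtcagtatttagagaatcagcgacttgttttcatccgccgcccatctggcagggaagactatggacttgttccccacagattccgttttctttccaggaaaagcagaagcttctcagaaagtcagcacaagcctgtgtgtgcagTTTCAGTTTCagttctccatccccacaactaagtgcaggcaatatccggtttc
Oas1a: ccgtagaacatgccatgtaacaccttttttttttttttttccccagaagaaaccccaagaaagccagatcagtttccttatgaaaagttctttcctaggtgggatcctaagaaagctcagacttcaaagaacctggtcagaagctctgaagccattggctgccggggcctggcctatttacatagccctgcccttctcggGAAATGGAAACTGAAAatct

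Isg15 held 3 overlapping matches between positions -78 and -57, counted from the start with -1 as the base just before it. Ifit1 and Ifit3 held 2 matches each, and Rsad2, Cxcl10 and Gbp7 held 1 each. In Oas1a 2 overlapping matches ended 5 bases before the start. The window of Irf7 held no match. The core occurred in 3.99% of the 27025 genes with a promoter window, which spans 250 bases before the start and 50 after it, and in 4 of the 5 score genes. A match describes letters in a window and shows no binding.

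Within the interferon-high cells the 5 score genes were unevenly seen. Isg15 had a UMI in 97.5% of them, Irf7 in 64.7%, Rsad2 in 59.6%, Ifit1 in 52.9% and Ifit3 in 29.7%. In the other gated cells the same shares were 14.0%, 7.62%, 4.14%, 1.15% and 0.994%, at median depths of 15273 UMIs in interferon-high cells and 16752 in the others. No cell type that lacks these genes could serve as a blank for free RNA, so the other gated cells are the background shown. Isg15 alone supplied 47.2% of all score UMIs and Rsad2 26.5%. There were 77 cells with all 5 genes, 54 with only 1 of them, and in 50 of those 54 it was Isg15.

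The score had a long upper tail. Its median was 7.23 per 10000, with quartiles at 4.27 and 14.9 and a maximum of 126.7. The lowest interferon-high cell stood at 2.85470 and the highest cell left out at 2.85242, and the 10th cells inside and outside the threshold stood at 2.92 and 2.80. A threshold was therefore laid through a continuous distribution, with no gap at it. Of the 448 cells 27 were chosen on 3 or fewer score UMIs, while 144 held 20 or more, and the 45 highest cells held 39.9% of all score UMIs.

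The levels of the score genes are given as CPM, the UMIs of a gene per 1000000 UMIs of the pooled cells of a library, in the order WT, DMP1-Cre Mfn2 and DMP1-Cre Rhot1 here and below. Isg15 (ENSMUSG00000035692) stood at 566, 548 and 625 CPM in interferon-high cells and at 10.9, 9.26 and 10.5 CPM in the other gated cells. Rsad2 (ENSMUSG00000020641) stood at 352, 218 and 382 CPM against 2.26, 1.90 and 3.00 CPM. Ifit1 (ENSMUSG00000034459) stood at 183, 119 and 190 CPM against 0.670, 0.470 and 0.821 CPM. Rsad2 and Ifit1 were lowest in the DMP1-Cre Mfn2 interferon-high cells, while Isg15 varied little between libraries. Irf7 (ENSMUSG00000025498) stood at 73.6, 89.2 and 102 CPM against 4.27, 4.48 and 5.29 CPM. Ifit3 (ENSMUSG00000074896) stood at 80.2, 61.3 and 61.9 CPM against 0.521, 0.480 and 0.679 CPM. By the rule of selection all 5 were far above the other cells in each library.

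The libraries held different shares of interferon-high cells. The share was 3.01% of gated cells in the WT library (exact 95% interval 2.52 to 3.56), 2.16% in the DMP1-Cre Mfn2 library (1.79 to 2.58) and 3.85% in the DMP1-Cre Rhot1 library (3.35 to 4.41). The share in the DMP1-Cre Mfn2 library was 0.717 times that in WT (0.560 to 0.918), and in the DMP1-Cre Rhot1 library 1.28 times (1.03 to 1.59). These intervals cover counting of cells only and say nothing of the spread between tumours. Cells at a score of 20 or more made up 0.556% (0.356 to 0.826), 0.297% (0.170 to 0.483) and 0.782% (0.562 to 1.06), with overlapping intervals. A score of 0 was found in 72.8%, 77.4% and 70.5% of gated cells. These shares are read from the same score that chose the cells, so they are no separate evidence on the order of the libraries. With each cell thinned to 5000 UMIs before scoring, the DMP1-Cre Mfn2 ratio was 0.638 (0.506 to 0.805) and the DMP1-Cre Rhot1 ratio 1.18 (0.964 to 1.44), an interval that reaches 1. The DMP1-Cre Rhot1 interval also reached 1 for the top 2% (0.967 to 1.64), for the top 5% (0.975 to 1.37) and under further settings given at the end.

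**Figure D1:**
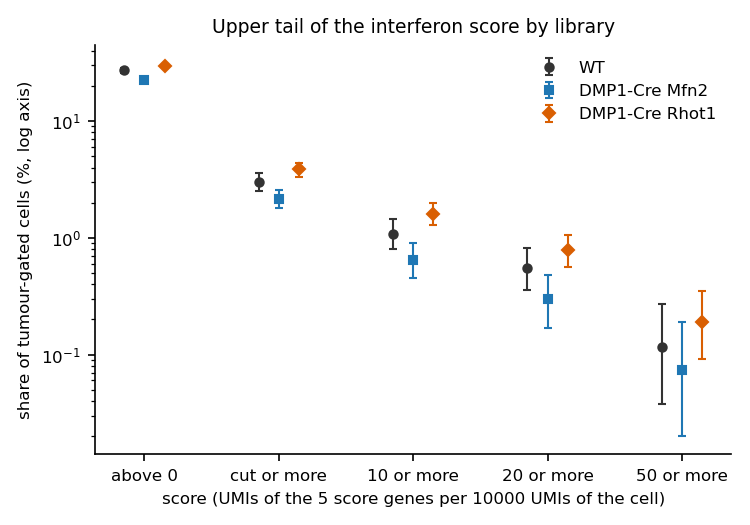
Share of tumour-gated cells (%, log axis) at or above each value of the interferon score, by library, with exact 95% intervals. The DMP1-Cre Mfn2 points lie lowest at each threshold and the DMP1-Cre Rhot1 points highest, from 2.16% and 3.85% at the threshold used to 0.297% and 0.782% at a score of 20.

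Antiviral genes outside the score rose with it before the threshold was reached. The antiviral effectors are 26 genes whose products act on viral replication, and their sum is given without Ifitm3 and Bst2, which tumour cells expressed throughout. It stood at 199, 205 and 216 CPM in cells with a score of 0 and at 353, 349 and 353 CPM between the 90th and 95th percentile of the score. The sum was 576, 490 and 514 CPM between the 95th and 97th percentile, just below the threshold. It was 849, 974 and 944 CPM from the 97th to the 99th percentile and 2760, 2474 and 2370 CPM in the top 1%. The 3 libraries followed nearly the same course, and there was no step at the threshold other than the steepening of the tail.

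Cxcl10, a chemokine that attracts T cells bearing the receptor Cxcr3, was concentrated at the top of the score. A Cxcl10 UMI was seen in 6.58%, 2.31% and 4.85% of cells with a score of 0 and in 10.0%, 9.71% and 4.72% of cells just below the threshold. It was seen in 33.0%, 29.7% and 23.3% of cells from the 97th to the 99th percentile and in 78.6%, 76.0% and 68.3% of the top 1%. Median depths in the top 1% were 13555, 14602 and 14863.5 UMIs, below those of cells with a score of 0 (17341, 15727 and 16436 UMIs), so these shares did not rise with depth. Thinned to 5000 UMIs, 30.1% of interferon-high cells and 1.56% of the other gated cells had a Cxcl10 UMI.

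**Figure D2:**
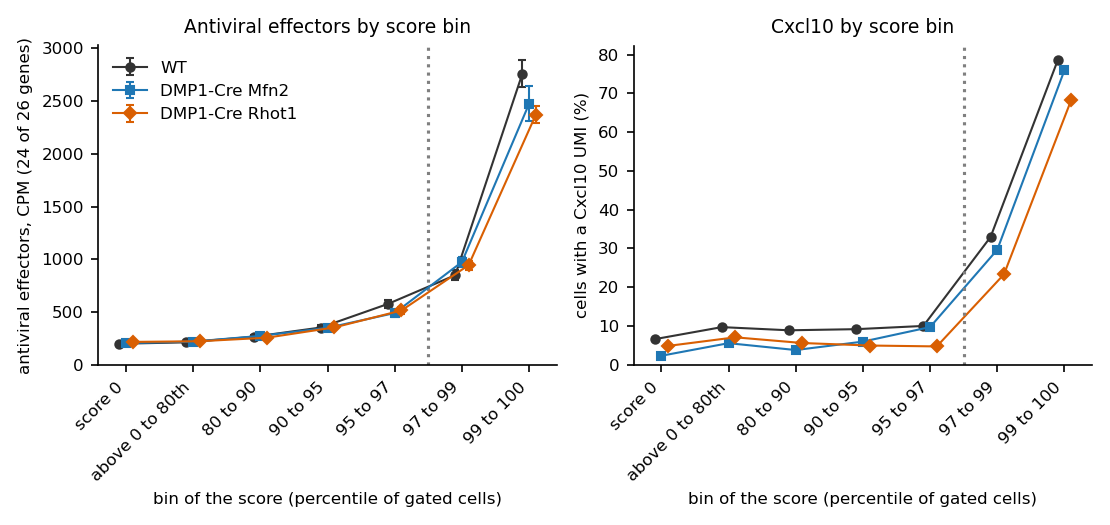
Left, summed antiviral effectors without Ifitm3 and Bst2 (CPM, with exact Poisson 95% intervals) and right, the share of cells with a Cxcl10 UMI (%), by bin of the interferon score and by library. The dotted line marks the threshold; the antiviral sum reaches 2760, 2474 and 2370 CPM and the Cxcl10 share 78.6%, 76.0% and 68.3% in the top bin.

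The antiviral effectors were also summed in single cells, only with Ifitm3 and Bst2 included. The sum had a median of 33.2, 35.8 and 39.9 UMIs per 10000 in interferon-high cells, against 14.3, 14.4 and 14.0 in the other gated cells. Only 2.96%, 3.17% and 1.63% of the other cells reached the interferon-high median of their library.

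Across all genes outside the score, 461 of 15510 tested genes were higher in interferon-high cells (2.97%) and 160 were lower (1.03%), by edgeR's quasi-likelihood test on UMI sums per library with the library as a block. The score genes belong to the same programme as many genes tested here, so counts of interferon genes describe what came with the score and are not independent evidence that these cells had met interferon. Each SE is the size of the log2 fold change divided by the square root of edgeR's F. That statistic shares information on spread across genes, so the SE is not the spread of a gene's own ratios between libraries. Cxcl10 had the largest fold change among called genes at 20 CPM or more. It stood at 350, 173 and 317 CPM against 5.73, 2.10 and 3.14 CPM, a log2 fold change of 6.30 (SE 0.09, edgeR adjusted p = 1.32e-54). Every interferon-high value lay above every other value, and the DMP1-Cre Mfn2 library was lowest in both.

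All 26 antiviral effectors were higher, with a median log2 fold change of 2.13 over the 16 at 5 CPM or more, where the median of all genes at that level was -0.03. Without the cells that carried immune markers, 25 of 26 were higher. Ifi44, an interferon-induced protein, stood at 57.5, 44.6 and 69.1 CPM against 0.906, 0.662 and 0.624 CPM (log2 6.30, SE 0.20, edgeR adjusted p = 4.06e-36). Cmpk2, a mitochondrial nucleotide kinase whose gene neighbours Rsad2, stood at 64.9, 41.1 and 62.5 CPM against 1.34, 1.09 and 1.71 CPM (log2 5.34, SE 0.17). Oasl2, of the oligoadenylate synthetase family, stood at 127, 114 and 147 CPM against 7.16, 4.77 and 5.40 CPM (log2 4.51, SE 0.10). In all 3 genes the groups lay far apart in each library. Ifit3b and Mx2, a relative of Ifit3 and a dynamin-like antiviral GTPase, changed by 7.11 (SE 0.40) and 6.01 (SE 0.40) from 3 to 16 UMIs per library in the other cells. Ifit3b is close in sequence to Ifit3, and reads of the pair may have been divided between them.

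The smallest changes among the effectors belonged to genes that tumour cells already expressed. Ifitm3, which blocks viral entry at endosomes, stood at 1548, 1761 and 1865 CPM against 951, 1064 and 983 CPM (log2 0.79, SE 0.05, edgeR adjusted p = 7.99e-22). Bst2, the tetherin that holds budding virus, stood at 755, 706 and 811 CPM against 341, 293 and 316 CPM (log2 1.27, SE 0.05). Isg20, an exonuclease, changed by 1.21 (SE 0.10). Apol9a and Apol9b, apolipoprotein-L genes outside the fixed lists, changed by 4.82 (SE 0.16) and 4.41 (SE 0.22), and Ddx60, a helicase, by 4.64 (SE 0.26), each with an edgeR adjusted p under the 0.05 threshold. Apol9a and Apol9b are near-identical copies whose reads may not be separable.

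**Figure D3:**
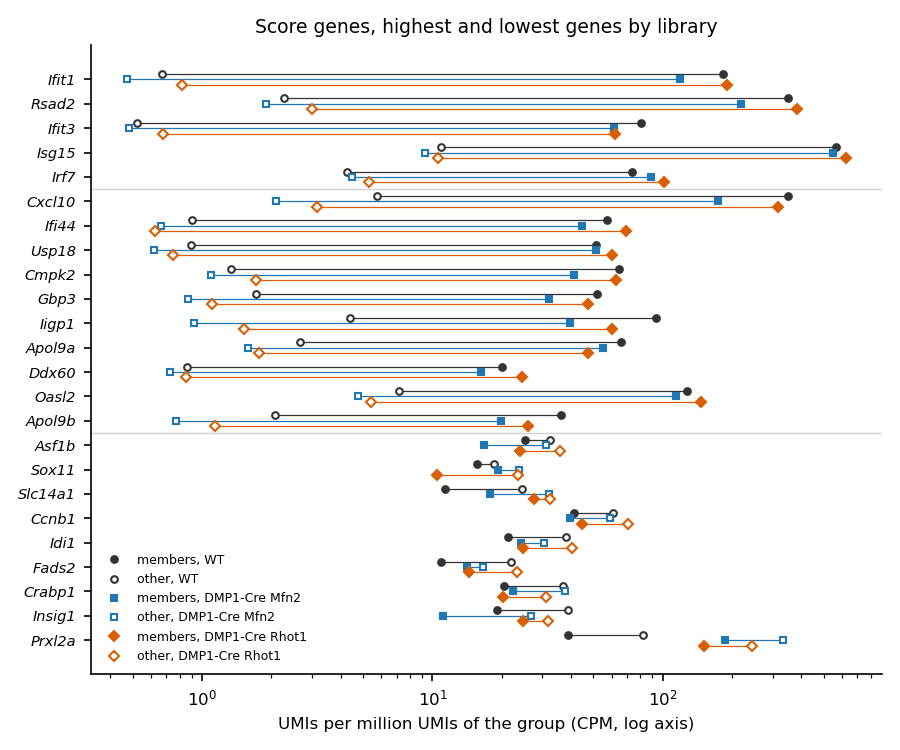
Levels (CPM, log axis) of the 5 score genes, the 10 highest and 9 of the 10 lowest named genes in interferon-high cells (filled) and other gated cells (open) of each library. Genes of the upper blocks lie apart by far more than the libraries differ, while Prxl2a, in the lowest block, differs less between cell groups than between libraries.

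Sensors of viral RNA rose and the adaptors behind them did not pass the test. Of 11 tested sensing genes of the 15 listed, 5 were higher and 0 lower. Ddx58, which encodes the RNA sensor RIG-I, stood at 68.8, 64.4 and 73.5 CPM against 10.6, 10.3 and 10.8 CPM (log2 2.71, SE 0.10, edgeR adjusted p = 1.21e-31). Ifih1, the sensor MDA5, changed by 3.56 (SE 0.25) and Dhx58, their relative LGP2, by 3.55 (SE 0.30). The adaptor Mavs had a log2 fold change of -0.42 (SE 0.18), the kinase Tbk1 0.08 (SE 0.12) and the transcription factor Irf3 0.01 (SE 0.13), with edgeR adjusted p values of 0.25, 0.87 and 0.99.

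Of 24 genes of interferon receptor signalling and ISGylation 16 were higher and 0 lower, with a median of 0.76 over the 21 at 5 CPM or more. Usp18, which removes Isg15 from proteins and damps the type I receptor, stood at 51.4, 51.2 and 60.4 CPM against 0.894, 0.619 and 0.744 CPM (log2 6.19, SE 0.20, edgeR adjusted p = 6.94e-36). Stat2, a transcription factor of the type I response, changed by 2.48 (SE 0.10). Parp14, an ADP-ribosyltransferase, changed by 4.02 (SE 0.09), and Trim30a by 3.62 (SE 0.22). The receptor subunits Ifnar1 and Ifngr2 and the receptor kinase Tyk2 had log2 fold changes of -0.12 (SE 0.14), -0.02 (SE 0.10) and -0.15 (SE 0.19), and none passed the test. Feedback and target genes thus moved in these cells, and no change was detected in these 3 receptor components.

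Interferon-gamma-linked genes were higher in 15 of 17 tested of 19 listed, with a median of 3.39 over the 4 at 5 CPM or more. Gbp3, a guanylate-binding protein, stood at 51.8, 31.9 and 47.5 CPM against 1.71, 0.865 and 1.11 CPM (log2 5.18, SE 0.19, edgeR adjusted p = 3.25e-32). Iigp1, an immunity-related GTPase, stood at 93.2, 39.5 and 60.1 CPM against 4.39, 0.918 and 1.52 CPM (log2 4.97, SE 0.17). Gbp5 stood at 22.7, 5.58 and 10.2 CPM against 0.509, 0.149 and 0.296 CPM (log2 5.28, SE 0.35). Each was highest in the WT library and lowest in the DMP1-Cre Mfn2 library, in both groups of cells. Ciita, the regulator of MHC class II genes, had 5 UMIs in all interferon-high cells and a log2 fold change of -0.08 (SE 0.76). Icam1, with 7 UMIs, had 0.56 (SE 0.70), and neither passed the test. The lists of type I and gamma targets overlap in biology, since many of these GTPases answer both interferons.

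The interferon genes themselves were not seen in these cells. All 21 (Ifnb1, the Ifna family, Ifnab, Ifne, Ifnk, Ifnz, Ifnl2, Ifnl3 and Ifng) had 0 UMIs in the 448 interferon-high cells. For such a count the 1-sided 95% upper limit is about 3 UMIs in the 7613059 sequenced there. In the other gated cells Ifnb1 had 1 UMI, in the DMP1-Cre Rhot1 library, Ifnz had 9, 14 and 11, and Ifng had 4, 3 and 5. Interferon transcripts are short-lived and scarce, and 3′ droplet libraries capture a small part of them, so a count of 0 sets only that limit.

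Of 20 chemokines and cytokines 16 were tested and 9 were higher, with 0 lower, and without cells carrying immune markers 10 of 15 were higher. Cxcl11, a ligand of the same receptor as Cxcl10, changed by 6.64 (SE 0.46), from 19 UMIs in all other gated cells. Tnfsf10, the death ligand TRAIL, changed by 4.85 (SE 0.40). Ccl5, which attracts T cells and monocytes, stood at 195, 419 and 162 CPM against 10.1, 16.7 and 12.7 CPM (log2 4.22, SE 0.09, edgeR adjusted p = 1.70e-44), and 1 cell held 30.9% of its UMIs in the WT library and 23.2% in the DMP1-Cre Mfn2 library. For Cxcl10 the highest cell held 13.0% in the WT library and 12.3% in the DMP1-Cre Rhot1 library. Cxcl2, Cx3cl1 and Il33 had log2 fold changes of -0.10 (SE 0.06), -0.45 (SE 0.35) and -0.45 (SE 0.17), and none passed the test.

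Antigen presentation by MHC class I rose by smaller amounts and MHC class II did not pass the test. Of 20 class I genes 16 were higher and 0 lower, with a median of 0.74 over 19. Tap1, which carries peptides into the endoplasmic reticulum, stood at 78.4, 71.0 and 64.3 CPM against 22.7, 24.6 and 23.8 CPM (log2 1.59, SE 0.09, edgeR adjusted p = 1.66e-22). H2-T22, a non-classical class I molecule, changed by 1.23 (SE 0.10), and H2-D1, a classical one, by 0.35 (SE 0.05), at 1100, 919 and 896 CPM against 838, 755 and 707 CPM. Reads of class I genes can be divided between near-identical copies. The chaperones Calr and Pdia3 had 0.01 (SE 0.05) and -0.02 (SE 0.05). Of 8 class II genes 7 were tested and none was called higher or lower by edgeR at the adjusted threshold, with unadjusted p from 0.00426 for Ctss to 0.933 for H2-Ab1. Cd74 stood at 30.9, 27.4 and 30.5 CPM against 34.9, 19.99 and 22.3 CPM, and its groups overlapped.

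Cell death genes were mixed. Of 16 genes 15 were tested, 7 were higher (Casp1, Casp4, Casp12, Gsdmd, Mlkl, Fas and Bak1) and 1 was lower. Casp4, which senses bacterial lipopolysaccharide and cuts gasdermin D, changed by 0.76 (SE 0.11, edgeR adjusted p = 1.03e-07), at 37.9, 40.1 and 40.7 CPM against 22.3, 26.1 and 22.5 CPM. Fas, a death receptor, had 1.57 (SE 0.42), with 6 to 9 UMIs per library in interferon-high cells, and its edgeR call was lost without cells carrying immune markers (0.74, edgeR adjusted p = 0.73). Without the DMP1-Cre Rhot1 library 3 of the 15 were higher.

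Several other groups moved little. NF-kB targets were higher in 4 of 13, among them the inhibitor Nfkbia (log2 0.42, SE 0.05) and Tnfaip3 (0.88, SE 0.22), and 1 was higher without the DMP1-Cre Rhot1 library. Hypoxia and glycolysis genes were higher in 6 of 16, with Vegfa at 0.44 (SE 0.11), and none was higher without that library (Vegfa 0.29, edgeR adjusted p = 0.45). Of the unfolded protein response 1 of 12 was higher, Ddit3, and of the stress genes that tissue dissociation induces 2 of 16, Junb (0.30, SE 0.05) and Atf3 (0.29, SE 0.09). Of the mitochondrially encoded genes 1 of 13 was lower, mt-Cytb (-0.18, SE 0.05), and of matrix genes 1 of 13 tested was higher, Fn1 (0.44, SE 0.09). Several of these small changes lost their call under other settings: of 22 alternatives, Atf3 under 16, mt-Cytb under 9 and Ddit3 under 7. Ddit3 was 0.13 without the DMP1-Cre Mfn2 library.

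Genes of mitosis were lower. Of 20 genes of G2 and M phase 14 were lower and 0 higher, with a median of -0.35. Ccnb1, the cyclin that drives entry into mitosis, stood at 41.4, 39.5 and 44.5 CPM against 60.8, 58.8 and 71.0 CPM (log2 -0.60, SE 0.09, edgeR adjusted p = 1.05e-06). Nusap1, a spindle protein, stood at 31.8, 36.5 and 48.7 CPM against 49.9, 52.8 and 69.6 CPM (-0.55, SE 0.09), and Hmmr, which binds spindle microtubules, changed by -0.51 (SE 0.09). Ccnb1 and Nusap1 were lower in each library, and their groups did not overlap. Top2a, Bub1 and Cdk1 were nearest to the other cells, at -0.12 (SE 0.05), -0.17 (SE 0.11) and -0.21 (SE 0.08), and did not pass the test. The list's median was -0.17 in the WT library, -0.52 in the DMP1-Cre Mfn2 library and -0.45 in the DMP1-Cre Rhot1 library.

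Genes of S phase showed no such change: 1 of 18 was higher, Mcm6 (0.25, SE 0.07, edgeR adjusted p = 0.039), and 0 lower. The call of Mcm6 was lost under 15 of 22 alternatives. The G2 and M count fell to 9 without the DMP1-Cre Rhot1 library, to 8 with DESeq2 and to 3 without the library as a block. Interferon-high cells were also shallower, with median depths of 15228.5, 15413 and 15103 UMIs against 17630, 16103 and 16786.5, and 11 of 20 were lower among cells with 10000 or more UMIs. Across bins of the score the summed level of these genes had no steady course: it was 1880, 1866 and 2180 CPM at a score of 0 and 1023, 1939 and 1646 CPM in the top 1%. The part of depth in the lower values was not tested.

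The 10 genes that fell most at 20 CPM or more included genes outside every list, such as Crabp1, and Prxl2a of the tumour identity list. Prxl2a, a peroxiredoxin-like protein, stood at 38.8, 186 and 152 CPM against 82.2, 333 and 243 CPM (log2 -0.79, SE 0.06, edgeR adjusted p = 2.08e-16). It was lower in interferon-high cells of each library, and the libraries differed more than the cells did. Odc1, which makes the polyamine putrescine, is also on the tumour identity list. It was not among these 10 and fell by 0.42 (SE 0.05). Crabp1, a retinoic acid carrier, fell by 0.73 (SE 0.12), and Insig1, Idi1 and Fads2, of sterol and fatty acid metabolism, fell by 0.75, 0.63 and 0.65 (SE 0.13, 0.12 and 0.15). Of the 10 tumour identity genes 6 were tested, and Prxl2a and Odc1 were the only ones that passed. Lgals3, Hmga1, Cd44 and S100a6 had log2 fold changes between -0.07 and 0.08.

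**Figure D4:**
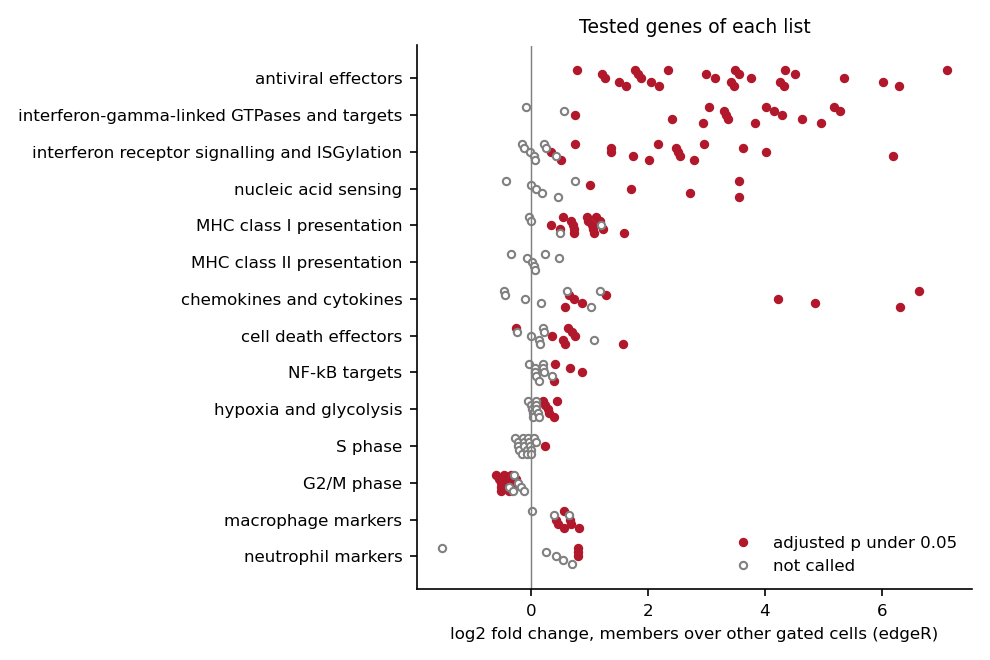
Log2 fold change of each tested gene of the fixed lists, interferon-high over other gated cells, with filled red points for genes that passed the edgeR test and open points for the others. All 26 antiviral effectors lie to the right of 0 and 14 of 20 G2 and M genes are called to the left of it.

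Markers of other cell types were checked in the same cells. The 10 macrophage markers summed to 272, 404 and 598 CPM in interferon-high cells and to 285, 289 and 317 CPM in the other gated cells, against 37336 to 39213 CPM in macrophage-gated cells. Of these 10, 7 were higher by edgeR, among them Fcer1g (0.82, SE 0.10), Tyrobp (0.66, SE 0.12) and Lyz2 (0.44, SE 0.07), and their median was -0.04 and -0.03 in the WT and DMP1-Cre Mfn2 libraries and 1.15 in the DMP1-Cre Rhot1 library. In the DMP1-Cre Mfn2 and DMP1-Cre Rhot1 libraries 30.1% and 21.7% of those UMIs came from 1 cell. Of the 8 neutrophil markers 3 were higher, S100a8, S100a9 and Retnlg, and the list summed to 264, 308 and 129 CPM against 127, 174 and 96.2 CPM. T and NK, dendritic and B cell markers summed to between 2.03 and 5.23 CPM, with Cd4, Clec9a, Cd209a, Siglech, Cd79b and Ms4a1 at 0 in each library. Bst2, which stands on the dendritic list as well, was left out of that sum and of the immune markers counted below. It was higher in interferon-high cells, at the levels given above.

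Cells with 5 or more immune marker UMIs per 10000 made up 24.3% of interferon-high cells and 17.4% of the others, and Scrublet called 3.57% and 1.53% doublets. With those 109 cells and the 2526 such cells among the others left out, macrophage markers summed to 211, 192 and 216 CPM in interferon-high cells. None of the macrophage or neutrophil markers was then higher. These markers were among those that chose the cells left out, so the loss of their calls cannot test where the UMIs came from. The sums given above for the other gated cells were made before this removal. The interferon groups were then nearly as before: 25 of 26 antiviral effectors, 14 of 17 interferon-gamma-linked genes and 16 of 20 MHC class I genes were higher, and 13 of 20 G2 and M genes were lower. Of all genes 383 were then higher and 159 lower.

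Macrophages of the same tumours gave a second view of the programme. Macrophage-gated cells had at least 1 Ptprc UMI and 5 UMIs of C1qa, C1qb and C1qc, and fewer than 5 of the tumour genes. Of 1275 such cells 232 reached the score threshold of the tumour cells, which was 15.9%, 18.7% and 20.6% of the 3 libraries, at a median depth of 6972.5 UMIs. They held a median of 6 score UMIs, against 12 in interferon-high tumour cells, and the part of this in the fold changes was not tested. In these macrophages 26 of 26 antiviral effectors, 12 of 17 interferon-gamma-linked genes and 12 of 20 MHC class I genes were higher by edgeR, where 227 of all 11398 genes were. The difference between the tumour and macrophage fold changes was tested with an edgeR interaction term. It was higher in tumour cells for 64 of 11393 genes (0.562%) and lower for 20 (0.176%).

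Of the fixed lists, the interferon-gamma-linked genes had the most members with a larger fold change in tumour cells. Of 17 tested, 9 had a larger change in tumour cells (Gbp2, Gbp3, Gbp5, Gbp7, Gbp9, Irgm2, Igtp, Iigp1 and Ifi47) and 0 a smaller one, and the median difference of the 4 at 5 CPM or more was 1.72, where all genes at that level had -0.04. Iigp1 changed by 4.88 in tumour cells and by 1.48 in macrophages, a difference of 3.40 (SE 0.37, edgeR adjusted p = 1.48e-06). Gbp7 changed by 4.08 and 1.19, a difference of 2.89 (SE 0.22, edgeR adjusted p = 1.41e-09), and Gbp3 by 5.13 and 2.02, a difference of 3.11 (SE 0.29). Cxcl10 changed by 6.27 and 2.90, a difference of 3.37 (SE 0.41, edgeR adjusted p = 8.27e-06).

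The levels show where these differences lay. Iigp1 stood at 64.8 CPM in interferon-high tumour cells of all libraries together and at 2.18 CPM in the other tumour cells, and at 235 CPM in high macrophages and 85.1 CPM in the others. Gbp7 stood at 127 and 7.04 CPM in tumour cells and at 224 and 103 CPM in macrophages. Cxcl10 stood at 290 and 3.56 CPM in tumour cells and at 338 and 47.1 CPM in macrophages. Over all libraries together the high tumour cells stayed below the high macrophages for these genes, with Cxcl10 in the DMP1-Cre Rhot1 library as the exception (317 against 262 CPM), and the larger fold change went with a lower level in the remaining tumour cells. Ddx60 and Gbp5 showed the same order, with differences of 2.74 (SE 0.31) and 3.38 (SE 0.41).

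Antiviral effectors differed less: of 26, 5 changed more in tumour cells (Oas1a, Oasl2, Zbp1, Xaf1 and Rtp4) and 2 less (Ifit2 and Isg20). Ifit2, of the same family as Ifit1, stood at 78.9 and 3.93 CPM in tumour cells and at 221 and 2.56 CPM in macrophages, a difference of -2.25 (SE 0.32, edgeR adjusted p = 0.000118). Isg20 stood at 48.6 and 21.4 CPM in tumour cells and at 39.8 and 5.96 CPM in macrophages, a difference of -1.60 (SE 0.30), which did not pass without the WT library (-1.12, edgeR adjusted p = 0.14). Ifi213, a member of the interferon-inducible Ifi200 family, stood at 15.9 and 16.0 CPM in tumour cells and at 50.1 and 4.99 CPM in macrophages, a difference of -3.40 (SE 0.30). Ifi213 was thus expressed in tumour cells at a level that did not follow the score. Ifit1bl1 stood at 55.3 CPM in high macrophages, had 0 UMIs in the others, and stood at 0.525 and 0.0678 CPM in tumour cells. The counts of differing genes were 128 and 15 without the WT library, 44 and 8 without the DMP1-Cre Mfn2 library and 35 and 3 without the DMP1-Cre Rhot1 library.

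**Figure D5:**
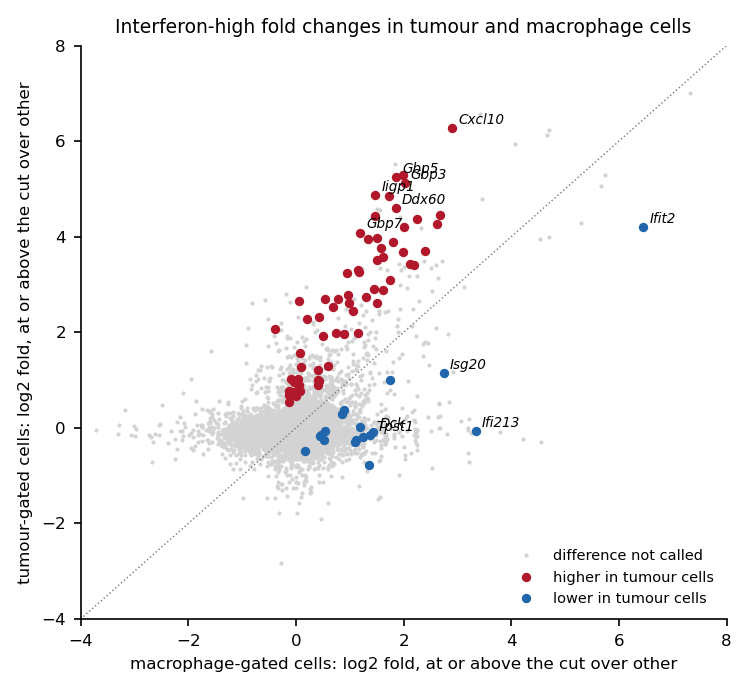
Log2 fold change of cells at or above the score threshold over cells below it, in macrophage-gated cells (x axis) and tumour-gated cells (y axis), for 11150 of 11393 tested genes with UMIs in all groups; 1 of these lies outside the axes. Points above the dotted diagonal, such as Iigp1 (1.48 and 4.88) and Gbp7 (1.19 and 4.08), changed more in tumour cells, and points below it, such as Ifit2 (6.45 and 4.20), changed more in macrophages.

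The response-element core was more frequent in the promoters of the higher genes, and not in those of the lower ones. It was found in 73 of 355 higher genes with a window (20.6%), in 4 of 116 lower genes (3.45%) and in 315 of 9970 genes that were not called (3.16%). By group it stood in 9 of 12 interferon-gamma-linked genes, 8 of 20 antiviral effectors and 5 of 19 MHC class I genes. Of the genes that changed more in tumour cells than in macrophages 22 of 50 held it, Gbp7, Cxcl10 and Oas1a among them, and of those that changed less 2 of 17. The palindrome TTCNNNGAA, the form of a gamma-activated site and the same on either strand, was found in 9.55% of all genes with a window and in 12.7% of higher genes. By group it was found in 7 of 12 interferon-gamma-linked genes, 8 of 20 antiviral effectors, 5 of 20 receptor signalling and ISGylation genes and 2 of 19 MHC class I genes. Of genes that changed more in tumour cells than in macrophages 8 of 50 held it, and of those that changed less 3 of 17. The palindrome stood in none of the 5 score genes, and in Gbp7 2 matches were found. These shares are descriptions and were not tested.

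Between genotypes, interferon-high cells were compared within the class, as ratios of CPM between single libraries. Both knockout comparisons share the WT library, and the intervals cover counting only. A gene was called past the fold at a ratio of 1.5 in either direction, among genes at 20 CPM or more. In the DMP1-Cre Mfn2 library 226 of 6256 genes were past the fold upwards (3.61%) and 266 downwards (4.25%), and in the DMP1-Cre Rhot1 library 219 of 6359 (3.44%) and 99 (1.56%). In other gated cells, which are more numerous, 71 and 54 genes, and 47 and 60 genes, were past it.

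Interferon-gamma-linked genes and chemokines stood lower than WT in DMP1-Cre Mfn2 interferon-high cells, and antiviral effectors lay nearer to WT. Chemokines stood lower than WT in both knockout libraries, in interferon-high and in other gated cells, as given below. The score of these cells was lower too, with a median of 6.25 per 10000 against 7.21 in WT. The top 1% of the score held 25 of 116 of them, against 42 of 130 in WT. The part of the score in the ratios to WT was not tested. Of 9 interferon-gamma-linked genes at 20 CPM 7 were past the fold downwards, with a median log2 ratio of -0.85, and their summed UMIs were 0.605 times WT (0.551 to 0.663). The ratio was 0.424 for Iigp1 (0.323 to 0.552), 0.246 for Gbp5 (0.116 to 0.478) and 0.712 for Gbp7 (0.589 to 0.859). The summed antiviral effectors at 20 CPM, Ifitm3 and Bst2 included, were 1.02 times WT (0.986 to 1.05), with 4 of 19 genes past the fold downwards. Without these genes, which held most of the UMIs, the sum of the other 17 was 0.923 times WT (0.874 to 0.975). Ifit2 was at 0.526 (0.409 to 0.674) and Isg20 at 1.48 (1.12 to 1.959). With the cells carrying immune markers left out the interferon-gamma-linked median was -0.51, and -0.50 with the score read after thinning.

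Irf1, a transcription factor induced by interferon gamma, was at 0.516 times WT (0.381 to 0.693) in DMP1-Cre Mfn2 interferon-high cells and Socs3, a feedback inhibitor, at 0.524 (0.409 to 0.667). Irf1 was also lower in the other gated cells of that library, at 15.8 CPM against 29.6 CPM in WT. Of 9 chemokines and cytokines 6 were past the fold downwards, among them Il1b at 0.482 (0.301 to 0.753), of whose WT UMIs 47.1% lay in 1 cell, and 1 upwards, Ccl5 at 2.15 (1.91 to 2.42), of whose UMIs 23.2% lay in 1 cell. The median of the list was -0.73 in interferon-high cells and -0.56 in the other gated cells. Its summed UMIs were 0.772 times WT (0.743 to 0.803) in interferon-high cells and 0.679 times (0.674 to 0.685) in the others. Of the score genes Rsad2 was at 0.620 (0.550 to 0.698) and Ifit1 at 0.650 (0.551 to 0.764), while Isg15 was at 0.968 (0.892 to 1.05) and Irf7 at 1.21 (0.976 to 1.51). How the cells were selected bears on these score values, since each cell had to reach the same threshold.

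In the DMP1-Cre Rhot1 library interferon-gamma-linked genes had a median of -0.18, with 2 of 9 past the fold downwards, and a sum of 0.919 times WT (0.856 to 0.988). Gbp5 was at 0.449 (0.282 to 0.705) and Iigp1 at 0.644 (0.529 to 0.785), while Gbp7 was at 1.11 (0.955 to 1.28) and Igtp at 1.22 (1.01 to 1.48). Gbp5 and Iigp1 were past the fold downwards in both knockout libraries, and Gbp7 and Igtp were past it in neither. Chemokines and cytokines had a median of -0.41, with 2 of 9 past the fold downwards, and a sum of 0.791 times WT (0.765 to 0.818). In the other gated cells of this library their median was -0.68 and their sum 0.635 times WT (0.630 to 0.640). Whether the 2 knockout libraries differ was not tested. Antiviral effectors summed to 1.14 times WT (1.11 to 1.17) with Ifitm3 and Bst2 and to 1.11 times (1.06 to 1.16) without them, with 0 of 20 genes past the fold. The top 1% of the score held 82 of 202 interferon-high cells here and 42 of 130 in WT. In that bin the sum without Ifitm3 and Bst2 was 2370 CPM against 2760 CPM in WT. From the 97th to the 99th percentile it was 944 against 849 CPM. The part of the score in these ratios was not tested. MHC class I medians were -0.19 in the DMP1-Cre Mfn2 library and -0.10 in the DMP1-Cre Rhot1 library, and -0.18 and -0.19 in the other gated cells.

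The ratios farthest from 1 included Il33 and Fn1. Il33, an alarmin cytokine of the chemokine and cytokine list, was at 0.0970 (0.0407 to 0.199) and 0.0429 (0.0154 to 0.0968) in the 2 knockout libraries, and Fn1, fibronectin, at 0.178 (0.129 to 0.242) and 0.300 (0.244 to 0.368). Both were low in the other gated cells of those libraries too, where Il33 stood at 45.8, 10.0 and 4.87 CPM and Fn1 at 107, 19.95 and 25.8 CPM. In DMP1-Cre Mfn2 interferon-high cells Ramp3, a receptor-modifying protein, was at 5.74 (3.27 to 10.8) and Prxl2a at 4.79 (3.79 to 6.10). In DMP1-Cre Rhot1 interferon-high cells Ccl8, Mrc1, F13a1 and Pf4, genes of tissue macrophages, were at 7.53, 6.28, 6.09 and 5.94, with 67.7%, 46.2%, 36.6% and 50.8% of their UMIs in 1 cell each. Macrophage markers were past the fold upwards in 7 of 7 there, beside the marker sums given above.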

How the data were processed

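The data are droplet single-cell RNA-seq of 3 tumour libraries, 1 for each host genotype, each a mix of tumours from 3 mice. Per the submitters' processing notes the authors used Cell Ranger 7.0.0 with the mm10 genome; the authors deposited raw UMI counts per gene and cell for 55357 identifiers, while the gene annotation and the handling of intronic reads are not stated in the labels. Sequencing depth was between 112088653 and 118223251 UMIs per library, and exact intervals on counts and shares cover counting error only.

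Cells were gated and scored as the report states. The members and gene lists were chosen with earlier results of these data known. UMIs were summed per library over interferon-high and over other gated cells. The 6 sums were tested with edgeR 4.0.16 in R 4.3.3 (TMM scaling, filterByExpr, quasi-likelihood test), with the library as a block because both sums of a library come from the same tumours, and Benjamini-Hochberg adjustment over all tested genes except the 5 score genes at 0.05. The macrophage comparison used 12 sums and an interaction term. Replicates are pools of different genotype, so p-values speak of these libraries only. The test shares information on spread across genes, so neither a p-value nor an SE measures how 1 gene alone varied between libraries. Ratios between genotypes have no replicate and no test. In counts simulated on the 6 sums with 15566 genes, the test recovered 64.6% of genes changed by a log2 of 1 and 76.5% of those changed by 2. On the 12 sums with 11430 genes it recovered 21.2% and 63.0%. The simulation gave all genes the same dispersion, no difference between libraries and no cells that hold much of a gene's UMIs. The rates therefore describe those settings and may not hold for these data.

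Named genes were the 10 highest and 10 lowest called genes at 20 CPM or more with the same direction in all libraries, the 3 highest and 3 lowest of each list, the 6 highest and 6 lowest macrophage differences, and the 4 highest and 4 lowest genotype ratios with 2 of each per list. Stat2, Cd74, H2-Ab1, Lgals3, Hmga1, Cd44, S100a6 and further values of Irf1, Il33 and Fn1 outside these rules were picked after their values were seen. Some genes that these rules name are not reported here. Doublets were called with Scrublet in scanpy 1.11.5 and kept in the main comparison. Alternatives covered the threshold, gate, depth, score genes, scaling, filter, block, DESeq2 1.42.0 and leaving out each library; leaving out immune-marker cells after the threshold was added after seeing the data.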

Additional observations from a re-analysis of the deposited data

Results flagged for a closer look

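In 12 genes the log2 fold change of score-high over other cells differed between tumour-gated and macrophage-gated cells by edgeR's interaction term, which tests the difference itself. The change was larger in tumour cells for Iigp1 by 3.40, Gbp5 by 3.38, Cxcl10 by 3.37, Gbp3 by 3.11, Gbp7 by 2.89 and Ddx60 by 2.74, and in each of the 3 libraries. It was smaller in tumour cells for Ifi213 (-3.40), Ifit2 (-2.25), Isg20 (-1.60), Tpst1 (-1.53) and Dck (-1.52). The fitted value of Ifit1bl1 was -10.7, which is no bound, since other macrophages had 0 UMIs of this gene. Isg20, Tpst1 and Dck each lost their call under 3 of 5 alternatives.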

How the results depend on the processing

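Other thresholds moved the shares by construction: the top 2% gave 2.06%, 1.36% and 2.59%, the top 5% gave 5.09%, 4.07% and 5.88%, and the thinned score gave 3.61% in WT. With the top 3% taken within each library the shares were 2.99% and 2.995% in the DMP1-Cre Mfn2 and DMP1-Cre Rhot1 libraries, and the log2 ratios to WT became 0.00338 and 0.00431, since that rule equalises them. The interval of the DMP1-Cre Rhot1 share ratio reached 1 without Scrublet doublets (0.997 to 1.54) and with the score without Ifit1 (0.996 to 1.54). It did so too with immune-marker cells left out before (0.953 to 1.53) and after the threshold (0.952 to 1.56). That of DMP1-Cre Mfn2 reached 1 among cells with 10000 or more UMIs (0.600 to 1.01). Leaving out 1 library gave 280 to 451 higher and 85 to 150 lower genes, the lowest of each without the DMP1-Cre Rhot1 library. Without the replicate block 220 were higher and 9 lower, DESeq2 gave 328 and 50, and the score without Isg15 gave 455 lower genes. Macrophage differences numbered 33 and 4 without the replicate block, and 35 to 128 higher and 3 to 15 lower with 1 library left out. The cause of these shifts was not tested. The antiviral median was 2.09 to 2.19 with 1 library left out, 2.34 for the top 2%, 1.85 for the top 5%, 1.963 thinned, 2.08 at 10000 UMIs and 2.03 without Isg15. The MHC class I median was 0.70 to 0.82 with 1 library left out, 0.95 for the top 2%, 0.79 thinned and 0.79 at 10 tumour-marker UMIs. Signs turned for C1qc without the DMP1-Cre Rhot1 library (-0.041, against 0.929 without the DMP1-Cre Mfn2 library), for Lyz2 in the top 2% (-0.14), and, with immune-marker cells left out before and after the threshold, for Tyrobp (-0.032 and -0.0228) and Retnlg (-0.012 and -0.0078). The macrophage-marker median within interferon-high cells turned to -0.48 (thinned), -0.12 and -0.093 (immune-marker cells left out) in the DMP1-Cre Mfn2 library and -0.28 (thinned) in the DMP1-Cre Rhot1 library. The 10 highest genes kept their calls under all 22 alternatives.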

Other observations

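Several of the genes that fell most belong to sterol metabolism, and the enzymes of cholesterol synthesis were therefore read as a group. This list was drawn up after Insig1, Idi1 and Fads2 had been seen among the 10 lowest genes, so its counts are a description. Of 20 enzymes 11 were lower in interferon-high cells by edgeR and 0 were higher, with a median log2 fold change of -0.41, where 1.03% of all tested genes were lower. Cyp51, which acts on lanosterol, stood at 50.1, 45.6 and 51.1 CPM against 81.2, 61.1 and 76.2 CPM in the other gated cells (log2 -0.57, SE 0.09, edgeR adjusted p = 1.64e-06). Its groups did not overlap. Msmo1, Hmgcs1 and Sqle, enzymes of the same pathway, fell by 0.55, 0.49 and 0.36. Srebf2, the transcription factor that drives these genes, fell by 0.57. With immune-marker cells left out 11 were lower, among cells with 10000 or more UMIs 8, with the score read from cells thinned to 5000 UMIs 7 (median -0.26), without the DMP1-Cre Rhot1 library 7, with DESeq2 7 and without the library block 2. Interferon-high cells were shallower than the others.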
